A study of Rattus norvegicus with 8 samples.

Results

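A group of 8 genes that mark classes of hippocampal GABAergic interneurons was followed in whole rat hippocampi after postnatal fluoxetine. They encode the peptides Sst, Npy, Vip, Cck and Tac1, the calcium-binding proteins Pvalb and Calb2, and the extracellular matrix protein Reln. The members were all genes of this list that a named, non-control probe measured, and all 8 were found, among 12598 genes and unnamed probes on the array. PNFLX animals received fluoxetine, a serotonin reuptake inhibitor, at 10 mg/kg from postnatal day 2 to day 21, and control animals received the 5% sucrose vehicle over the same days. Hippocampi were taken at 2 months of age from 4 PNFLX and 4 control samples, and each was hybridised to a single-colour custom array. The treatment protocol gives day 21 as the last day for all, and this day was used here, but the descriptions of single samples give days 25 to 28 for PNFLX 1 to 4 and days 21 to 24 for control 1 to 4. If those days were right, every PNFLX sample would have ended later than every control, and that length and the treatment cannot be told apart. Strain, sex and litter are not given in the sources used here, nor whether a sample is 1 animal or a pool, so the p-values below measure only the spread between these samples.

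Hippocampal interneurons are a minority of neurons that release GABA and control when and where pyramidal cells fire. Sst and Npy are typical of dendrite-targeting cells, Pvalb of fast-spiking basket cells that target the cell body, and Cck of another basket cell class. Vip and Calb2 are typical of cells that contact other interneurons, and Reln is made by neurogliaform cells and by Cajal-Retzius cells of the outer molecular layers. Several are not restricted to interneurons: Cck is also made by pyramidal cells, and Calb2 by mossy cells in some rodents. In a whole-tissue measurement, fewer cells of a type and less RNA per cell cannot be told apart.

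The 8 genes were measured by 11 probes with 8 distinct sequences, because Npy, Vip and Tac1 each had the same 60-base sequence printed in 2 spots. These pairs measure the same transcript stretch from different places on the array and so show the error of a spot. The last 30 bases of the duplicated probes, and of the Sst probe whose values are taken up below, are shown 5′ to 3′; capitals mark the hexamer AATAAA, the usual polyadenylation signal, where a search of the probe strand found it.
Npy: tatatgtgtgtttaAATAAAgtatcatgca
Vip: cctaacggagtgcttgatttccagtagtaa
Tac1: ttgccagcgatgcaagtctccaaagacaga
Sst: tgttagctttaatattgttgtctcagccag
The Npy probe was the only member probe that held the hexamer, which 3.81% of the 13267 distinct probe sequences held. In the rat build rn4 the files place the probes at chr11:79183616-79183675 (plus strand) for Sst, chr4:78321255-78321314 (plus) for Npy, chr1:36372337-36372396 (plus) for Vip and chr8:126512566-126512625 (minus) for Cck. They place Pvalb at chr7:116148929-116148988 (minus), Calb2 at chr19:40028075-40028135 (minus), Reln at chr4:8609026-8609085 (plus) and Tac1 at chr4:32775851-32775909 (plus). Whether a probe lies in coding sequence or a UTR was not analysed here.

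Values are given as relative signal, which is a probe's processed signal divided by the 75th percentile of its array, and as differences of log2 relative signal, PNFLX minus control. The 75th percentile itself lay between 873 and 941 signal units in PNFLX and between 654 and 880 in control. On each array 70.5% to 77.9% of probes were well above background. All 11 member probes were well above background on all 8 arrays, and none was saturated. The number of arrays limits the precision. Of 16 markers of hippocampal principal neurons, 13 had a matched probe and 12 passed the filter on dim probes. Of these 5 were higher and 7 lower in PNFLX, with a median difference of -0.04. Their summed relative signal was 95.8 to 102.3 in PNFLX and 103.5 to 133.3 in control, without overlap. Nrgn, the brightest of them, made up a large part of that sum, with 48.8 to 53.9 in PNFLX and 60.4 to 83.6 in control. The sum and Nrgn are therefore not separate results. The Nrgn difference was -0.54 (limma adjusted p = 0.173), and Nrgn was the only 1 of the 12 whose groups did not overlap. The part of these cells in the results was not tested. All PNFLX arrays sat in one row of the slide and all control arrays in another; an effect of that row and of the group cannot be told apart. PNFLX 4 stood apart from the other arrays: its values deviated from a gene's mean over all arrays by a median of 0.35 on the log2 scale, against 0.16 to 0.21 on the others. By the SD of these deviations it did not, with 0.572 for PNFLX 4, 0.611 for PNFLX 1 and 0.392 to 0.570 for the others. Each gene's difference is given with and without PNFLX 4.

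None of the 8 genes passed the test for a difference between PNFLX and control hippocampi. In the limma fit across all 9482 genes and unnamed probes tested, 0 of 8 had an adjusted p under 0.05 and 0 had an unadjusted p under 0.05, and 0 of 8 had groups that did not overlap. The exact permutation test gave no p under 0.229, where the smallest that 4 against 4 samples allow is 0.0286. Across all genes tested, 0.548% passed the limma threshold (28 higher and 24 lower), 12.8% had an unadjusted p under 0.05, and 11.0% had groups that did not overlap. Of the members, 3 had positive differences and 5 had negative ones, but 8 were positive without scaling between arrays and 7 with normexp background correction. Over all genes, 45.5% were positive, against 78.7% without scaling and 30% with normexp. The median difference over the 8 genes was -0.02, against -0.04 over all genes, and the median size of the difference was 0.04, against 0.22 over all genes. The 95% intervals of the fold PNFLX over control were wide, reaching down to 0.638 for Sst and up to 1.55 for Tac1, and narrower for Pvalb (0.813 to 1.29) and Calb2 (0.661 to 1.13).

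**Figure D1:**
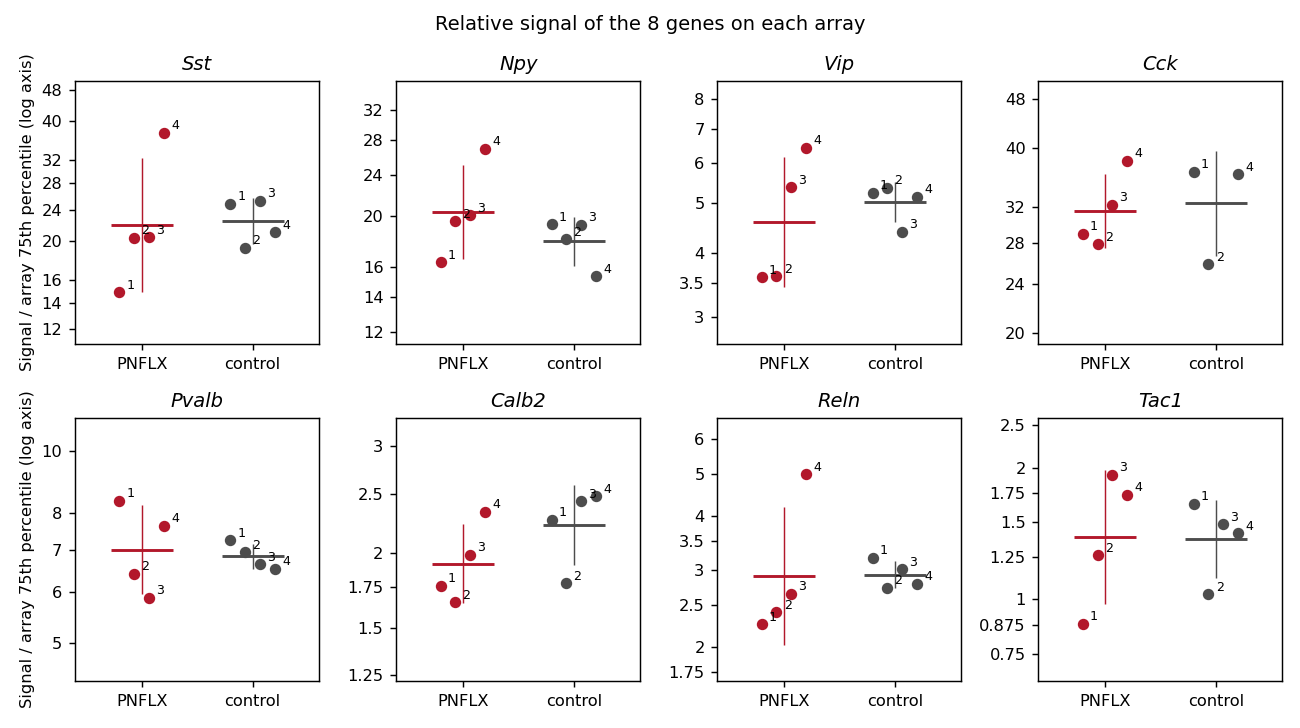
Relative signal (a probe's signal over its array's 75th percentile, log axis) of each gene on each array, with PNFLX left and control right, numbers marking the replicate, horizontal lines the mean and vertical lines 1 SD of the log2 values. The groups overlap for all 8 genes, and PNFLX 4 is the highest point for Sst, Npy, Vip, Cck and Reln. The outlier-marked Cck spot of control 3 is not drawn.

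Sst, the peptide of dendrite-targeting interneurons, had relative signals of 14.9, 20.4, 20.5 and 37.4 in PNFLX 1 to 4, against 24.85, 19.2, 25.3 and 21.04 in control 1 to 4. The lowest and the highest of the 8 arrays were both PNFLX samples, and the controls lay between them. The log2 mean was 4.46 ± 0.56 in PNFLX and 4.49 ± 0.19 in control (SD, n = 4 each). The difference was -0.03 with an SE of 0.27, a fold of 0.978 (95% interval 0.638 to 1.50), with a limma adjusted p of 0.969. Without PNFLX 4 the difference was -0.29, with a limma adjusted p of 0.511.

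Npy, which is often co-released by Sst cells and is also made by neurogliaform cells, had relative signals of 16.3, 19.5, 20.1 and 26.9 in PNFLX hippocampi, against 19.3, 18.0, 19.2 and 15.3 in controls. PNFLX 2, 3 and 4 were above every control array and PNFLX 1 was below all but control 4. This gene had the largest positive difference of the 8, 0.19 with an SE of 0.18, and a limma adjusted p of 0.678. Its second spot gave 13.9, 19.4, 21.7 and 26.1 in PNFLX, against 18.9, 17.3, 19.2 and 15.8 in controls, and a difference of 0.15. The difference of the first spot was 0.05 without PNFLX 4, 0.29 without PNFLX 1 and 0.11 without control 4. Control 4, the lowest array for Npy, also had the highest level of choroid plexus markers, 8 of 11 of which were tested. Their summed relative signal was 7.35 to 22.4 in PNFLX and 7.91 to 52.5 in control. Of the 8, 7 were highest in control 4, where the share over all genes was 10.9%. Their part in the result was not tested.

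Vip, the peptide of interneurons that inhibit other interneurons, had relative signals of 3.58, 3.60, 5.38 and 6.42 in PNFLX, against 5.25, 5.37, 4.40 and 5.14 in control. PNFLX 1 and 2 lay below every control, PNFLX 3 was level with control 2, and PNFLX 4 lay above every control. The difference was -0.13 with an SE of 0.21 and a limma adjusted p of 0.820, and without PNFLX 4 it was -0.29, with 0.527. This first spot lies in row 22, where the 589 genes within 5 rows had a median difference of -0.15 with quartiles of -0.36 and 0.08. The second spot of the identical sequence gave 3.15, 3.53, 4.99 and 6.33 in PNFLX, against 4.15, 3.81, 3.82 and 3.94 in control. Its order was the same in PNFLX, but the sign of the difference turned, to 0.14. The second spot was lower than the first by 0.20 to 0.50 in log2 units on the 4 control arrays and by 0.02 to 0.18 on the 4 PNFLX arrays. For comparison, the median gap of the group difference between the spots of 1272 duplicated sequences was 0.20, and the 2 Vip spots settle no direction.

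Cck, the peptide of the second basket cell class, had relative signals of 28.9, 27.8, 32.3 and 38.1 in PNFLX, against 36.6, 25.8 and 36.2 in control 1, 2 and 4. The spot of control 3 was marked as an outlier by the scanner software and read 5.05, and it was left out of the fit. The groups overlapped, with a difference of -0.04, an SE of 0.19 and a limma adjusted p of 0.943. Without PNFLX 4 the difference was -0.13. With the spot of control 3 kept, the difference was 0.63 with an SE of 0.59 and a limma adjusted p of 0.673. The Cck probe lies in row 180, where the 583 genes within 5 rows had a median difference of 0.21 with quartiles of -0.11 and 0.47.

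Pvalb, the calcium buffer of fast-spiking basket cells, had relative signals of 8.35, 6.41, 5.88 and 7.63 in PNFLX, against 7.24, 6.93, 6.64 and 6.53 in control. The PNFLX arrays held both the 2 highest and the 2 lowest values. The difference was 0.04 with an SE of 0.15 and a limma adjusted p of 0.934, and without PNFLX 4 it was -0.0060. Its spot lies in row 7 of 192, near the edge of the array, where the 473 genes within 5 rows had a median difference of 0.09 with quartiles of -0.29 and 0.60.

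Calb2, which encodes the calcium buffer calretinin, had relative signals of 1.76, 1.65, 1.98 and 2.34 in PNFLX, against 2.26, 1.78, 2.43 and 2.48 in control. PNFLX 2 was the lowest array and control 4 the highest, with overlap between. This gene had the largest negative difference of the 8, -0.21 with an SE of 0.17, and a limma adjusted p of 0.614. Without PNFLX 4 it was -0.31, with a limma adjusted p of 0.436.

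Reln, the secreted matrix protein that acts through the Vldlr and Lrp8 receptors, had relative signals of 2.26, 2.40, 2.65 and 4.98 in PNFLX, against 3.21, 2.74, 3.02 and 2.79 in control. PNFLX 1 to 3 lay below every control, and PNFLX 4 lay above every control. The difference was -0.01 with an SE of 0.25 and a limma adjusted p of 0.987. Without PNFLX 4 it was -0.27, with a limma adjusted p of 0.381.

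Tac1, the precursor of substance P and neurokinin A, had relative signals of 0.88, 1.26, 1.93 and 1.74 in PNFLX, against 1.66, 1.03, 1.49 and 1.42 in control. The difference was 0.01 with an SE of 0.27 and a limma adjusted p of 0.987, and without PNFLX 4 it was -0.095. The second spot gave 0.93, 1.12, 1.90 and 1.69 in PNFLX, against 1.65, 1.07, 1.48 and 1.46 in control, and a difference of -0.04. PNFLX 3, the highest array for Tac1, was also highest for 4 of the 7 thalamus and habenula markers tested of 10 listed (Lef1, Chrnb4, Chrna3 and Rora, all dim), but not for Slc17a6, Prkcd or Calb2. Of all genes with a value on every array, 18.9% were highest in PNFLX 3. The share over dim genes alone was not taken. Some dim genes of other lists were also highest in PNFLX 3 (Npy1r and Penk), and others were not (Nos1 and Prox1). The summed relative signal of the 7 was 3.68 to 4.95 in PNFLX and 3.56 to 4.52 in control. Habenular neurons express Tac1, and the part of these cells in the result was not tested.

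**Figure D2:**
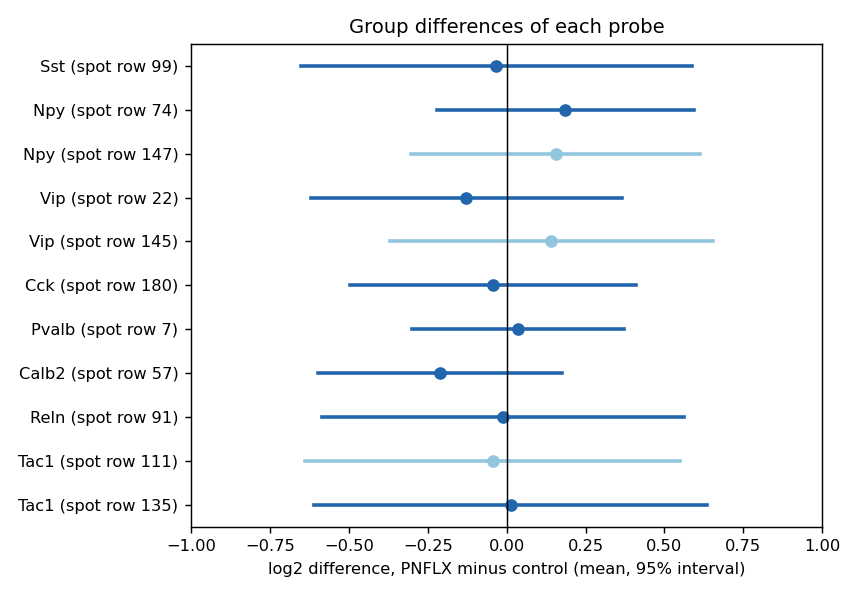
Log2 difference of relative signal, PNFLX minus control, of the 11 probes with 95% intervals from the limma fit on probes; dark marks are the spots used for the gene, light marks the other spot of an identical sequence. All 11 intervals include 0, and the 2 Vip spots fall on opposite sides of it.

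The spread within groups was compared next. The SD was larger in PNFLX for 6 of 8 genes, a share near the 64.6% of all genes, and at least 2 times larger for 4 (Sst, Vip, Pvalb and Reln), where 34.0% of all genes did. The SD ratio, PNFLX over control, was 4.99 for Reln, 3.45 for Pvalb, 3.25 for Vip and 2.92 for Sst, with a median of 2.42 over the 8 genes and of 1.40 over all genes. An exact two-sided permutation test of the mean absolute deviation from the group median, chosen after the values were seen, gave 0.0286 for Vip and for Pvalb, the smallest value it can give. Adjusted over the 8 genes these were 0.114, so no gene passed. Without PNFLX 4, the SD ratio was at least 2 for Vip (2.58) and Pvalb (3.94), and it was 1.39 for Sst and 1.12 for Reln. The median ratio was then 1.25 over the 8 genes and 0.934 over all genes, of which 47.1% had a larger SD in PNFLX and 22.6% one at least 2 times larger. The ratio was at least 2 for 4 genes under quantile normalization and for 3 with spot row and column medians subtracted. Vip then had 1.103 and Pvalb 2.72. The second spots gave 2.95 for Npy, 7.95 for Vip and 1.79 for Tac1. Pvalb deviated from its mean by 0.27 on PNFLX 1 (median of neighbouring spots 0.43) and by -0.23 on PNFLX 3 (0.04). Vip deviated by -0.42 and -0.41 on PNFLX 1 and 2 (-0.21 on both), and by 0.42 on PNFLX 4 (-0.11). The cause was not tested.

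PNFLX 4 was above the mean of all arrays for 8 of 8 genes, by a median of 0.37 on the log2 scale. PNFLX 1 and PNFLX 2 were below it for 7 of 8 genes each, by medians of 0.30 and 0.17. Control 1 was also above it for 8 of 8 genes, by a smaller median of 0.13. With quantile normalization PNFLX 4 and control 1 were each above the mean for 7 of 8 genes. Among the 7 genes with a value on every array, 4 were highest in PNFLX 4 and 4 were lowest in PNFLX 1, where the shares over all genes were 22.0% and 15.0%. Cck was also highest in PNFLX 4 among its 7 arrays. Genes of similar signal deviated upward on PNFLX 4 as well: the 255 genes within 0.5 log2 units of the mean level of Sst had a median deviation of 0.16 there with a 90th percentile of 0.51, and Sst itself deviated by 0.75. Reln deviated by 0.77 against a 90th percentile of 0.59 over 685 genes, and the other 6 members lay under the 90th percentile of their like-level genes. Over the whole array PNFLX 4 held the lowest value of 28.5% of genes and the highest of 22.0%.

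**Figure D3:**
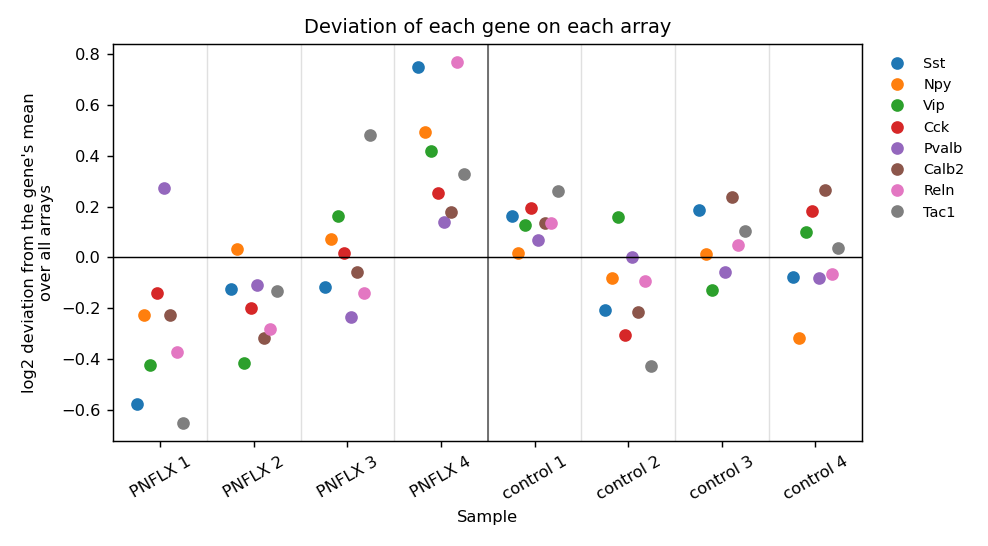
Deviation of each gene on each array from that gene's mean over all arrays, in log2 units, PNFLX arrays left of the vertical line and control arrays right of it. All 8 genes lie above 0 on PNFLX 4 and on control 1, and 7 of 8 lie below 0 on PNFLX 1 and on PNFLX 2.

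Some of the genes varied together across samples. Of the 28 pairs of members, 24 had a positive Pearson r over the arrays, with a median r of 0.60. No such count was made over pairs of other genes, and genes of similar signal also deviated upward on PNFLX 4. Without PNFLX 4, r was lower for some pairs (0.27 in place of 0.80 for Npy and Reln). For others it was higher (0.77 in place of 0.61 for Calb2 and Reln). Sst and Reln were the closest pair, with r = 0.951 over 8 arrays (exact permutation p = 0.00057, adjusted over the 28 pairs 0.0160) and Spearman's rho of 0.905 (exact permutation p = 0.00456, adjusted 0.128). With the group means removed r was 0.951, without PNFLX 4 it was 0.882, and without the 2 arrays farthest from the median of Sst it was 0.794. Under quantile normalization r was 0.927 with an adjusted exact p of 0.0535, and with spot row and column medians subtracted it was 0.881 with an adjusted exact p of 0.0604. The Sst and Reln spots lie in rows 99 and 91 of the array. Cck and Calb2 had r = 0.929 over 7 arrays (exact permutation p = 0.00933, adjusted 0.131), and 0 of the 28 pairs passed by Spearman's rho.

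**Figure D4:**
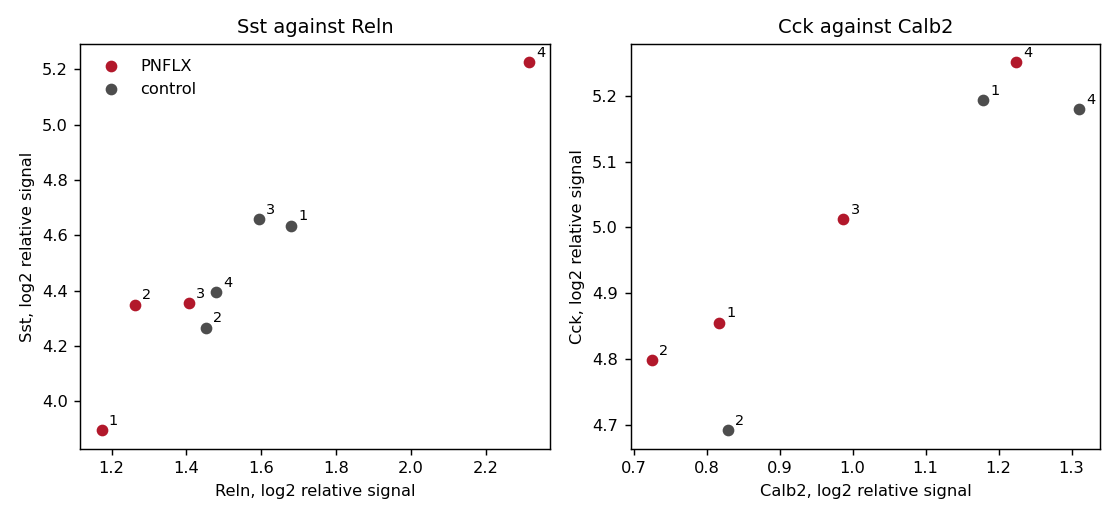
Log2 relative signal of Sst against Reln over 8 arrays, and of Cck against Calb2 over the 7 arrays with an unmarked Cck spot, with PNFLX in red, control in grey and numbers marking the replicate. The points run from PNFLX 1 at the low end to PNFLX 4 at the high end of the Sst and Reln panel, with the other arrays between.

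The genes whose log2 values followed a member most closely were taken from 7745 genes well above background and unmarked on all 8 arrays, as a description over arrays that share a 75th-percentile scaling. For Reln they were Tfb2m (r = 0.995), Acaca (0.988) and Papss1 (0.986), and 181 genes had r above 0.9. For Sst they were Ndufaf3 (0.973), Acaca (0.972) and Echs1 (0.972), and 112 genes had r above 0.9. Npy was followed most closely by Dync1i1 (0.977), Mrps30 (0.975) and Hdgfl3 (0.965), and 78 genes were above 0.9. Vip was followed by Polh (0.943), Kcna4 (0.937) and Nrcam (0.925), with 11 genes above 0.9. Cck was followed by Cdhr1 (0.975), Neto2 (0.972) and Slc18a1 (0.960) over 7 arrays, and Calb2 by an unnamed probe (0.969), Neto2 (0.950) and Cdhr1 (0.946). Pvalb was followed by Tmod1 (0.933), Fbp1 (0.924) and Nubp1 (0.921), and Tac1 by Atf2 (0.947), Plekhf2 (0.944) and Rps7 (0.941).

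Genes that act with the members were read from lists of receptors, peptide processing, other interneuron genes, interneuron transcription factors, perineuronal nets and other calcium-binding proteins. In these 6 lists 0 genes passed the limma threshold, where 0.548% of all genes did. The counts of signs below stand beside 45.5% of all genes that were higher in PNFLX. They move with the scaling, since the median difference of all genes was 0.26 without scaling and -0.39 with normexp. Of 15 receptors tested, 7 were higher and 8 lower in PNFLX, with a median difference of -0.05. Sstr5, a somatostatin receptor in row 190 of the array, had relative signals of 0.00704, 0.0266, 0.0723 and 0.0129 in PNFLX, against 0.0911, 0.0641, 0.0714 and 0.0745 in control. It was well above background on 2 of 4 PNFLX and on 4 of 4 control arrays, with a difference of -1.87 and a limma adjusted p of 0.270. Sstr4, another somatostatin receptor, had a difference of -0.43 (limma adjusted p = 0.386) with no overlap between groups, and Vldlr, a reelin receptor, 0.55 (0.473).

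Of 14 genes for prohormone processing and dense-core granules, 3 were higher and 11 lower in PNFLX, with a median of -0.15. Pcsk1n, an inhibitor of a prohormone convertase, had relative signals of 15.0, 13.9, 14.0 and 13.2 in PNFLX, against 17.9, 16.9, 16.4 and 16.3 in control. All 4 PNFLX arrays lay below all 4 control arrays, with a difference of -0.27 and a limma adjusted p of 0.368. Pam, which amidates the carboxyl end of peptides, had -0.38 (limma adjusted p = 0.371), and Scg2, a granule protein, had 0.27 (0.529).

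Of 21 other interneuron genes, 15 were higher and 6 lower, with a median of 0.11. Nxph1, which binds alpha-neurexins, came closest to the threshold: its relative signals were 0.220, 0.282, 0.228 and 0.234 in PNFLX, against 0.164, 0.156, 0.138 and 0.153 in control. All 4 PNFLX arrays lay above all 4 controls, with a difference of 0.65 and a limma adjusted p of 0.0855. The Nxph1 spot lies in row 179, next to the row of Cck (180). The 583 genes within 5 rows of Cck had a median difference of 0.21, with quartiles of -0.11 and 0.47. The part of this position in the Nxph1 difference was not tested. Sncg, a marker of a Cck basket cell subclass, had -0.52 (limma adjusted p = 0.140), and Slc32a1, the vesicular GABA transporter, had -0.52 (0.264); both also had groups that did not overlap, and their spots lie in rows 7 and 6.

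Of 14 interneuron transcription factors, 5 were higher and 9 lower, with a median of -0.50, and 6 had an unadjusted p under 0.05, where 12.8% of all genes did. The same count was 2 of 15 receptors, 2 of 14 processing genes, 5 of 21 other interneuron genes, 1 of 9 perineuronal net genes and 1 of 14 calcium-binding proteins. Maf, a factor of Sst and Pvalb lineages in mice, had relative signals of 0.363, 0.0723, 0.625 and 0.359 in PNFLX, against 0.807, 0.993, 0.703 and 0.888 in control. The groups did not overlap, with a difference of -1.60 and a limma adjusted p of 0.305. Nr2f1, a factor of caudal interneuron lineages, had -0.48 (limma adjusted p = 0.329) and Satb1, a factor of Sst cells, had 1.63 (0.345). Satb1 was dim, with overlapping groups: 0.0506, 0.0980, 0.0930 and 0.0960 in PNFLX, against 0.0603, 0.0512, 0.00685 and 0.0229 in control. It was well above background on 4 of 4 PNFLX and 3 of 4 control arrays. PNFLX 4 deviated by a median of -0.66 over these genes, where the 8 members deviated by 0.37; the part of that array in these values was not tested.

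Of 9 perineuronal net genes, 1 was higher and 8 lower, with a median of -0.12. Hapln1, the link protein of the nets, had a difference of -1.22 (limma adjusted p = 0.207) from a spot in row 191, Hapln4 had -0.47 (0.535) and the hyaluronan synthase Has2 had 0.42 (0.553). Of 14 other neuronal calcium-binding proteins, 5 were higher and 9 lower, with a median of -0.22. Hpcal1, a neuronal calcium sensor, had -0.79 (limma adjusted p = 0.250) with no overlap between groups, Necab2 had -0.46 (0.508) and Cabp7 had -0.59 (0.529). PNFLX 4 deviated by medians of -0.52 and -0.51 over these 2 lists.

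**Figure D5:**
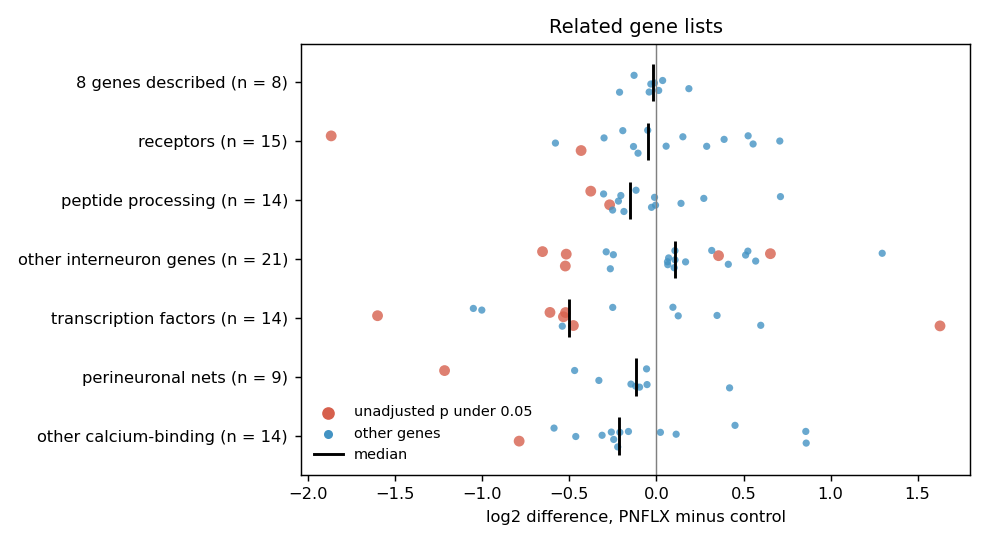
Log2 difference, PNFLX minus control, of each gene tested in 7 lists, 1 point a gene, with black lines at the median and red marking an unadjusted limma p under 0.05. The 8 described genes lie between -0.21 and 0.19, and the medians of the other 6 lists between -0.50 and 0.11.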

How the data were processed

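Cy3-labelled cRNA from total RNA of whole hippocampi was measured on single-colour Agilent arrays, per the labels' protocols. Spot intensities are the processed signals that Agilent Feature Extraction 10.5.1.1 wrote, per the file headers. The deposited log2 values matched them within 0.00242, after the same 75th-percentile scaling and subtraction of each probe's median over the 8 arrays. From the processed signals of 15207 non-control probes, log2 values were taken and each array's 75th percentile was subtracted; 521 outlier-marked spots were dropped. The filter kept 11600 probes that the software called above background on 4 or more of 8 arrays, and the brightest probe of each gene was used. Genes were named through RefSeq accessions (14338 probes, 11729 genes). PNFLX was set against control in limma 3.58.1 (R 4.3.3), with Benjamini-Hochberg adjustment and a threshold of 0.05, and single values with exact permutation tests (scipy 1.17.1). The limma script and the permutation functions were tested on simulated data. The members and lists were chosen with earlier results of these data known. Older symbols in the lists were updated through RefSeq synonyms. Genes named from each list are the 3 of smallest p, and from the search the 3 of highest r. Alternatives changed the background correction, scaling, filter, outlier marks, source of values, array position, probes of a gene and replicates.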

Additional observations from a re-analysis of the deposited data

How the results depend on the processing

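No member passed the limma threshold under any of the 19 or 20 alternatives run for it, the smallest adjusted p being 0.213 (Npy). In the 6 related lists 0 genes passed under the alternatives run for them. The lists were not run without scaling, with quantile normalization or with the mean of a gene's probes. Those settings gave more calls over all genes (110, 73 and 69) than the main fit (52). The signs of the members' differences were less firm. Without scaling between arrays 8 of 8 members were higher in PNFLX, while the median of all genes moved to 0.26; Calb2 was then 0.084, Cck 0.27, Reln 0.28, Sst 0.26 and Vip 0.17. With normexp background correction 7 were higher, while the median of all genes was -0.39; Calb2 was then 0.086, Reln 0.22, Sst 0.28 and Vip 0.77. Cck was 0.63 in the authors' deposited values and also with outlier-marked spots kept. With row and column medians subtracted Cck was 0.017, Reln 0.013, Pvalb -0.16 and Tac1 -0.076. The mean of a gene's probes gave -0.016 for Tac1 and 0.0060 for Vip, and the second spot gave -0.044 for Tac1 and 0.14 for Vip. Leaving out single replicates gave 1 to 6 higher members, 1 without PNFLX 4, with Cck from -0.21 to 0.044, Pvalb from -0.050 to 0.12, Reln from -0.27 to 0.11, Sst from -0.29 to 0.15 and Tac1 from -0.15 to 0.23. Of the pairs, 0 passed under quantile normalization and 0 with row and column medians subtracted, against 1.

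Over all genes, 52 calls (28 higher, 24 lower) became 29 with normexp (7 and 22), 110 without scaling (93 and 17), 73 with quantile normalization (32 and 41), 26 with no filter, 28 with probes well above background on all arrays, 10 with row and column medians subtracted, 0 of 9122 with the outer 5 rows left out (1095 at an unadjusted p under 0.05) and 14 to 59 without single replicates. Same-numbered samples did not deviate together (r from -0.02 to 0.08). These values cannot show whether samples of the same number were paired in the design, which the labels do not say. With the replicate block 5 genes and 0 members passed, and 3 members were higher. The causes were not tested.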

Other observations

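Further interneuron genes, chosen after their values were seen, are given as values. Calb1, which encodes the calcium buffer calbindin, had relative signals of 0.531, 0.659, 0.607 and 0.603 in PNFLX, against 0.472, 0.484, 0.405 and 0.515 in control; the groups did not overlap, and the limma difference was 0.36 with an adjusted p of 0.319. Cort, the peptide related to somatostatin, had 3.05, 5.09, 5.09 and 7.70 in PNFLX, against 3.64, 3.20, 3.71 and 3.41 in control, with PNFLX 4 highest and PNFLX 1 lowest, as for Sst; its limma difference was 0.51 with an adjusted p of 0.453. Dlx1, a factor of interneuron precursors, had 0.631, 0.565, 0.706 and 0.308 in PNFLX, against 0.895, 0.717, 0.824 and 0.799 in control, so PNFLX 4 was the lowest array for it; its limma difference was -0.61 with an adjusted p of 0.366. Of 7 Cajal-Retzius markers, Reln, Calb2 and Tp73 were tested, and the other 4 were too dim. Tp73, a defining factor of these cells, had relative signals of 0.00620, 0.00619, 0.0302 and 0.00993 in PNFLX, against 0.0309, 0.0227, 0.0360 and 0.0301 in control. It was not well above background on any PNFLX array and well above it on 4 of 4 control arrays, so it passed the filter through the controls alone. The groups overlapped, with PNFLX 3 above control 2 and control 4. An upper bound for PNFLX was the dimmest probe well above background on each array, or Tp73 itself where that was brighter. Against that bound the control mean was 1.93-fold higher. The limma adjusted p was 0.247, and no difference is read from these dim values.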
